A study of Mus musculus with 6 samples.

Results

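The G1 cyclins, the inhibitors of their partner kinases, the pocket protein gene Rb1 and the transcription factor gene E2f1 decide whether a cell leaves G1 and copies its DNA. The 10 genes Ccnd1, Ccnd2, Ccnd3, Ccne1, Ccne2, Cdkn1b, Cdkn2a, Cdkn2c, Rb1 and E2f1 were described here. They were chosen by symbol, and each Ensembl identifier of the count table was matched to its GENCODE M21 name. All 10 were found among the 48709 genes of the table, and all 10 passed the filter on low counts that kept 20167 genes.

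The data came from ovaries of wild-type CD1 mouse embryos at 13.5 days post coitum (dpc), around the time when female germ cells stop dividing and enter meiosis. The pregnant dams had been gavaged from 10.5 to 13.5 dpc with acetaminophen (APAP, 30 mg/kg/day) together with ibuprofen (IBU, 15 mg/kg/day), which are a painkiller and an inhibitor of prostaglandin synthesis, or with ethanol diluent alone in the controls. The doses were split over 4 gavages, 3 h apart. Both groups held 3 libraries, and per the study's methods each library was made from a pool of gonads of more than 1 dam, so that litter and sibling effects within a pool could not be separated. The sample titles of the exposed group name ibuprofen only, whereas the exposure label gives APAP+IBU, and the label was followed. The question was whether prenatal exposure to the combination of both drugs changed the level of these transcripts.

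In textbook terms, growth signals raise the D cyclins, which activate Cdk4 and Cdk6. These kinases phosphorylate the RB1 protein, which then lets go of E2F1 and its relatives, and the freed factors switch on the E cyclins and the genes of DNA replication. The CDK inhibitors brake this chain, and p27, the product of Cdkn1b, is known in the fetal ovary as a protein of pregranulosa cells that have left the cell cycle.

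The libraries held between 37811968 and 48954631 counts. Replicate 3 of each group stood apart from the other libraries of its group. Liver transcripts were higher in both: Afp, the fetal liver gene for alpha-fetoprotein, had 153, 365 and 889 CPM (counts scaled to a common library total) across the controls, given in the order of replicates 1, 2 and 3 here and below, and 125, 187 and 1281 CPM across the exposed libraries. Over the 19 liver markers that passed the filter, the summed level was 207 to 596 CPM in replicates 1 and 2 and 2349 to 3741 CPM in replicate 3. Of 20 spermatid markers, most of which a fetal ovary should lack, 18 were higher in all 3 controls than in all 3 exposed libraries. Over all genes, 5.92% were apart in that direction. The summed level was 88.5 to 209 CPM in controls and 41.2 to 62.3 CPM in exposed libraries. That sum includes Odf2l, which had 714 to 2345 counts in every library. The mean log2 CPM over the list, where each gene weighs the same, was 1.26 to 2.64 in controls and -1.62 to -0.94 in exposed libraries. Of the germ cell markers of the labelled tissue, Ddx4 had 213, 191 and 268 CPM in the controls and 246, 251 and 224 CPM in the exposed libraries. Over the 10 markers the summed level was 1036 to 1304 CPM. Their mean log2 CPM was 6.50, 6.01 and 6.10 in the controls and 5.72, 5.87 and 6.23 in the exposed libraries. In replicates 1 and 2 Ddx4 was thus higher in exposed libraries, whereas the mean over the list was lower. No count fell on Sry in any library, while the 6 fetal testis markers that passed the filter summed to 20.5 to 46.8 CPM. The granulosa lineage marker Foxl2 was low and uneven, at 0.944 to 8.16 CPM, whereas the 10 pregranulosa markers summed to 1128 to 1612 CPM. The part of these other cell types in the results below was not tested. Each comparison was made over all 6 libraries and again over replicates 1 and 2 alone, as 2 against 2 libraries. The second was chosen with earlier results of these data known, so its calls are descriptions.

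Over all 6 libraries, 0 of the 10 genes had an adjusted p under 0.05 by edgeR's quasi-likelihood test, beside 0% of all 20167 genes. DESeq2 on the same libraries called 192 genes and again 0 of the 10. At an unadjusted p under 0.05 stood Cdkn1b and Ccne2 with higher values in exposed ovaries (3% of all genes lay on that side) and Ccnd1 with lower values (3.21% of all genes). Over replicates 1 and 2 alone, 7 of the 10 passed the adjusted threshold. Cdkn1b, Ccne2 and Rb1 rose, where 14.2% of all 20633 genes tested did, and Ccnd1, Ccnd3, Ccne1 and E2f1 fell, where 12.9% of all genes did. In the same fit of replicates 1 and 2, 5 of 10 germ cell markers fell and 2 rose (median log2 fold change -0.88), 6 of 12 erythroid markers fell (-1.09), 4 of 6 fetal testis markers fell (-1.17), 17 of 20 spermatid markers fell and 1 rose (-4.06), and of the pregranulosa markers 2 of 10 fell and 1 rose (-0.24). Their part in the calls of the 10 genes was not tested. In bulk tissue a lower share of cells of 1 type and less RNA per cell cannot be told apart.

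**Figure D1:**
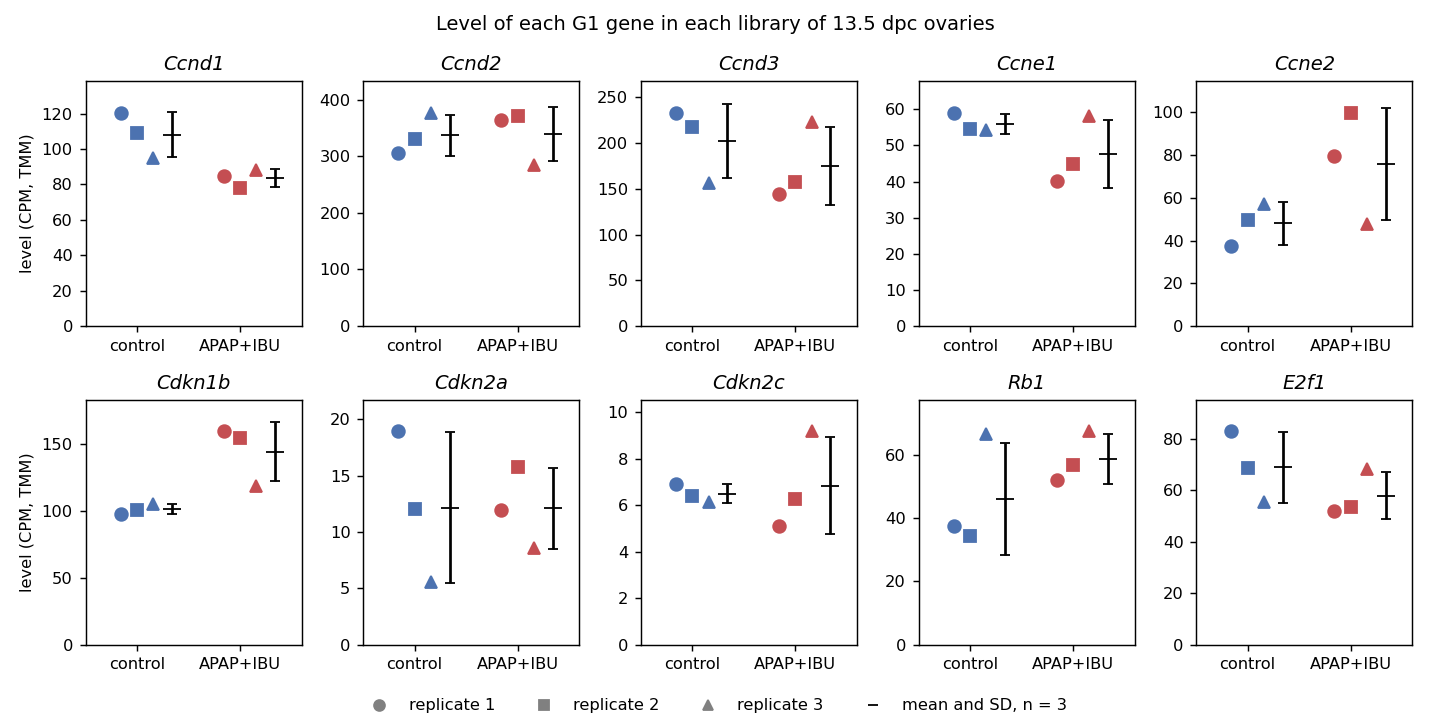
Level of each of the 10 genes (vertical axis, CPM after TMM scaling, starting at 0) in the 3 control and 3 APAP+IBU libraries, with marker shape giving the replicate and the black bar the mean and SD (n = 3). The groups do not overlap for Ccnd1, with exposed libraries at 78.1 to 88.1 CPM, and for Cdkn1b, with exposed libraries at 119 to 159 CPM, while in the other panels replicate 3 often lies on the far side of its group.

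To compare genes with each other, levels were divided by exon length. That length is the union of all annotated exons, 8775 bases for Ccnd3 and 9409 for Ccnd2. It can exceed the length of the transcripts that are expressed. The order of the genes and the cyclin shares below depend on it. On the scale of CPM per kilobase, Ccnd2 was the most abundant of the 10, with a mean of 36.0 ± 4.03 (SD over 6 libraries), higher than 93.2% of all tested genes. It lay above Cdkn1b, the next in order at 27.0 ± 6.05, in 6 of 6 libraries, although the ranges of both genes overlapped. Ccnd3 (21.5 ± 4.56), Ccnd1 (20.4 ± 3.39), E2f1 (20.1 ± 3.82), Ccne1 (19.5 ± 2.87) and Ccne2 (17.7 ± 6.67) followed and did not differ from their neighbours beyond the spread between libraries. Cdkn2a (10.3 ± 4.11) and Rb1 (8.70 ± 2.33) came next and also overlapped. Cdkn2c was the least abundant at 2.48 ± 0.508, below Rb1 in every library and with no overlap of their ranges. Between libraries, the level of Ccnd2 varied least, by 1.32-fold from lowest to highest, and that of Cdkn2a most, by 3.42-fold.

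The D cyclins carry growth signals into the cycle. Ccnd1 (cyclin D1, ENSMUSG00000070348, GRCm38 chr7:144929931-144939925, minus strand) had 120, 109 and 95.1 CPM in the controls and 84.7, 78.1 and 88.1 CPM in the exposed libraries. Every exposed library was below every control library. The mean was 108 ± 12.7 CPM in controls and 83.6 ± 5.05 CPM in exposed ovaries (SD, n = 3). The log2 fold change was -0.37 (SE 0.13, 95% interval -0.67 to -0.07), with an adjusted p of 0.692 by edgeR over all genes. Groups that did not overlap were found with lower exposed levels for 5.92% of all genes and with higher exposed levels for 4.78%. In replicates 1 and 2 alone Ccnd1 fell by 0.47 on the log2 scale (SE 0.10, edgeR adjusted p = 0.0154). Between the 2 replicate 3 libraries the difference was -0.11.

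Ccnd2 (cyclin D2, ENSMUSG00000000184, chr6:127125162-127152193, minus strand) had 305, 330 and 376 CPM in the controls and 364, 371 and 285 CPM in the exposed libraries. The lowest and the highest value both belonged to a replicate 3 library, and the groups overlapped. Its log2 fold change was 0.01 (SE 0.15, interval -0.34 to 0.36), so that a change of more than about that size in either direction lay outside the interval. For replicates 1 and 2 alone it was 0.23 (SE 0.09, edgeR adjusted p = 0.102).

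Ccnd3 (cyclin D3, ENSMUSG00000034165, chr17:47505051-47599691, plus strand) had 233, 218 and 156 CPM in the controls and 144, 158 and 224 CPM in the exposed libraries. Replicates 1 and 2 of the groups were well apart, whereas the replicate 3 libraries took the opposite order. Over all 6 libraries the log2 fold change was -0.21 (SE 0.21, edgeR adjusted p = 0.758), and over replicates 1 and 2 Ccnd3 fell by 0.56 (SE 0.09, edgeR adjusted p = 0.00832), whereas the 2 replicate 3 libraries differed by 0.52 in the other direction. Its processed pseudogene Ccnd3-ps held 16 to 47 counts per library against 6794 to 8882 for Ccnd3.

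As shares of the D cyclin transcripts per kilobase, Ccnd2 made up 38.3, 42.3 and 51.3% in the controls and 53.0, 53.3 and 40.7% in the exposed libraries. The Ccnd1 share was 30.2, 27.9 and 25.9% in the controls and 24.6, 22.4 and 25.1% in the exposed libraries, again with no overlap. The Ccnd3 share ran from 22.5 to 34.2% and overlapped between groups. The 3 D cyclins thus differed in how their levels ran over the libraries, and across the 6 libraries the log2 levels of Ccnd2 and Ccnd3 had a Pearson r of -0.902. That value describes 6 libraries that also shared differences in depth and base composition.

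The E cyclins act after the D cyclins and activate Cdk2 at the border to S phase. Ccne1 (cyclin E1, ENSMUSG00000002068, chr7:38097984-38107534, minus strand) had 59.0, 54.5 and 54.3 CPM in the controls and 40.1, 44.8 and 58.3 CPM in the exposed libraries. Exposed replicates 1 and 2 were below all controls, and exposed replicate 3 was among them. Its log2 fold change was -0.23 (SE 0.16, edgeR adjusted p = 0.699) over 6 libraries, and over replicates 1 and 2 Ccne1 fell by 0.40 (SE 0.10, edgeR adjusted p = 0.0304).

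Ccne2 (cyclin E2, ENSMUSG00000028212, chr4:11191351-11204779, plus strand) ran the other way, with 37.5, 49.8 and 57.4 CPM in the controls and 79.7, 99.8 and 47.7 CPM in the exposed libraries. Again exposed replicates 1 and 2 lay outside the controls, here above them, and exposed replicate 3 within them. Over 6 libraries the log2 fold change was 0.65 (SE 0.27, interval 0.02 to 1.28), with an unadjusted p of 0.0437 and an adjusted p of 0.692 by edgeR. It was 0.39 without exposed replicate 2, and 0.27 (SE 0.18, edgeR adjusted p = 0.611) with the correction for GC content and exon length described below. Ccne2 rose over replicates 1 and 2 by 1.06 on the log2 scale, a 2.08-fold change (SE 0.16, edgeR adjusted p = 0.00703). The share of Ccne1 among the E cyclin transcripts per kilobase was 67.4, 58.9 and 55.4% in the controls, 39.8 and 37.1% in exposed replicates 1 and 2 and 61.6% in exposed replicate 3. On this scale cyclin E1 was thus the more abundant of the pair in 4 libraries and cyclin E2 in exposed replicates 1 and 2.

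**Figure D2:**
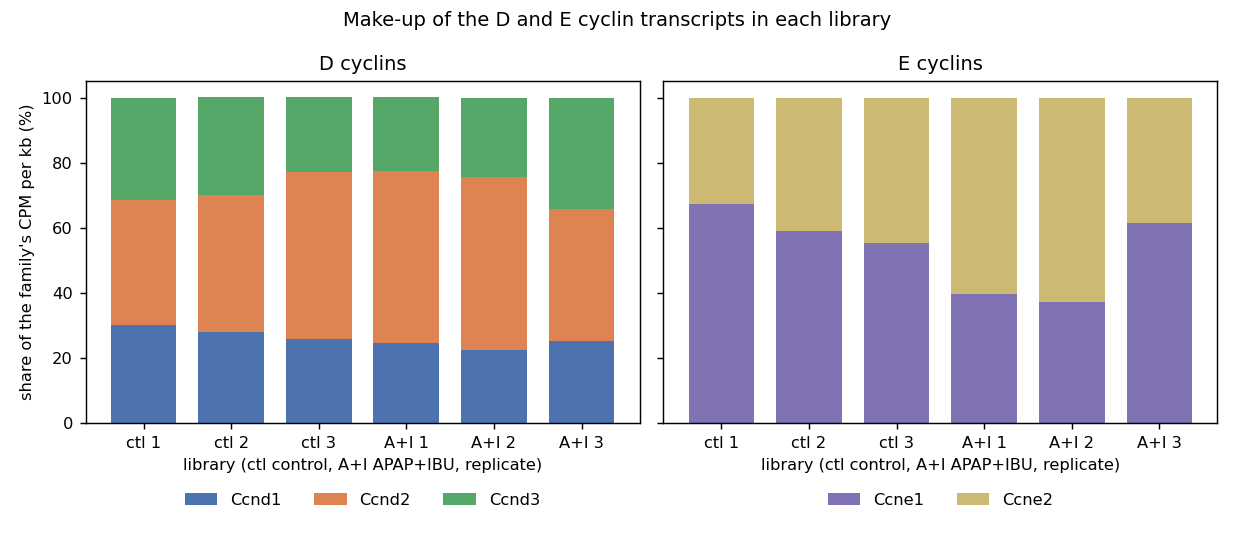
Share of each D cyclin (left) and each E cyclin (right) in the CPM per kilobase of its family, in percent, for the 3 control and 3 APAP+IBU libraries. In exposed replicates 1 and 2 Ccne2 makes up 60.2 and 62.9% of the E cyclin transcripts, against 32.6 to 44.6% in the other libraries.

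Of the CDK inhibitors, Cdkn1b (ENSMUSG00000003031, chr6:134920401-134925513, plus strand) encodes p27, which binds cyclin E with Cdk2 and holds the kinase inactive. Its level was 97.8, 101 and 105 CPM in the controls and 159, 155 and 119 CPM in the exposed libraries. The controls were close together, and all 3 exposed libraries were above them, with replicate 3 the nearest. The mean was 101 ± 3.68 CPM in controls and 144 ± 22.2 CPM in exposed ovaries (SD, n = 3). The log2 fold change over 6 libraries was 0.51, or 1.43-fold (SE 0.14, interval 0.19 to 0.84), with the smallest p of the 10 genes, 0.00661 before and 0.551 after adjustment by edgeR. Cdkn1b rose over replicates 1 and 2 by 0.68 (SE 0.09, edgeR adjusted p = 0.00625), and the 2 replicate 3 libraries differed by 0.18 in the same direction. An exact two-sided permutation test of 3 against 3 libraries gave 0.1 for Cdkn1b and for Ccnd1, the smallest p it can give, and 0.2 to 1 for the other 8 genes. The ratio of Cdkn1b to Ccnd1 per kilobase, which does not depend on library scaling, was 0.84, 0.959 and 1.144 in the controls and 1.949, 2.048 and 1.397 in the exposed libraries. This pair was set side by side after both were seen not to overlap, so the separation of the ratio adds no support.

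RefSeq (build GRCm38.p6) gave promoter windows, from 250 bases before to 50 bases after a transcript start, for 6 of the 10 genes and 9 starts. The window of Cdkn1b, the gene whose levels were higher in every exposed library, spans chr6:134920151-134920450 on the plus strand, and its start is also the GENCODE start. It is shown with the CCAAT box (CCAAT or its reverse complement) in capitals, which it holds 3 times.
Cdkn1b: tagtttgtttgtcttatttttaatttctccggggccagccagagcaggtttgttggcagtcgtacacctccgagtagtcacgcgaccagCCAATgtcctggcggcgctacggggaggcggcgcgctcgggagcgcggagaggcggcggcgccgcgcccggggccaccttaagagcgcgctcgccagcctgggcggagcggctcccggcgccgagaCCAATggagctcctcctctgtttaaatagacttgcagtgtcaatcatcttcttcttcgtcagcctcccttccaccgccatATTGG
The letters CCAAT, searched on both strands, occurred in 4 of the 9 windows and in 37.4% of all 32851 windows of the same length. The letters of the canonical E2F site (TTTCCCGC, TTTCGCGC, TTTGCCGC and TTTGGCGC, both strands) occurred in 1 of the 9, beside 2.26% of all windows, and the GC box GGGCGG in 8 of the 9, beside 35.7%. These matches describe letters only. The 9 windows held 44 to 77.3% GC, and the set of all windows was not matched to them for GC. Some starts lie well inside the GENCODE gene, such as that of E2f1 by 466 bases and those of Cdkn2c by 433 and 1817. Ccnd1, Ccnd2, Ccne2 and Rb1 had no window.

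Cdkn2a (ENSMUSG00000044303, chr4:89274471-89294653, minus strand) encodes both p16, an inhibitor of Cdk4 and Cdk6, and p19Arf, which acts on p53 through Mdm2, from 2 starts. The deposited table gives 1 count for the gene, so the transcripts from these starts could not be told apart. Their windows lie at chr4:89294570-89294869 (distal start) and chr4:89282143-89282442 (proximal start), both on the minus strand, and are shown because the count pools the transcripts of both. The capitals mark the E2F letters TTTCCCGC in the distal window and the reverse complement of CCAAT in the proximal window.
Cdkn2a distal: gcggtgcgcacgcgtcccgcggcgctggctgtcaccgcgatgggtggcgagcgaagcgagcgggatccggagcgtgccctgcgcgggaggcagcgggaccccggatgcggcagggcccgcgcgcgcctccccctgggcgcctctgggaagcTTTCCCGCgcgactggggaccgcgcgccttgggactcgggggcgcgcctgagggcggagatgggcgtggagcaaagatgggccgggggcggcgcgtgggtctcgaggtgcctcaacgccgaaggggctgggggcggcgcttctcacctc
Cdkn2a proximal: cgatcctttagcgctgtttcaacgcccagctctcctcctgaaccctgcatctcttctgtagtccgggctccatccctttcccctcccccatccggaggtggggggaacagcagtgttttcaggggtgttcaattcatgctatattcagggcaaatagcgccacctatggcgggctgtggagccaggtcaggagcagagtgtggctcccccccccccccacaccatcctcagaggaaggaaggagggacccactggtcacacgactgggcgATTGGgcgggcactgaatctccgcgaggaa
Cdkn2a had 18.9, 12.0 and 5.53 CPM in the controls and 11.9, 15.8 and 8.54 CPM in the exposed libraries. Within each group the lowest level was in replicate 3, and the exposed libraries lay entirely within the range of the controls. The log2 fold change was -0.01 with a wide interval of -0.98 to 0.96 (SE 0.42), so that neither a rise nor a fall of less than about 2-fold could be told from none in these libraries.

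Cdkn2c (ENSMUSG00000028551, chr4:109660876-109667189, minus strand) encodes p18, another inhibitor of Cdk4 and Cdk6. It had 6.92, 6.37 and 6.13 CPM in the controls and 5.09, 6.27 and 9.16 CPM in the exposed libraries, resting on 238 to 352 counts per library. The controls were within 1 CPM of each other, and the exposed libraries lay on both sides of them. Its log2 fold change was 0.08 (SE 0.25, interval -0.50 to 0.65) over 6 libraries and -0.21 (SE 0.21, edgeR adjusted p = 0.479) over replicates 1 and 2.

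Rb1 (ENSMUSG00000022105, chr14:73183673-73325822, minus strand) encodes the pocket protein that the cyclin-dependent kinases inactivate. It had 37.6, 34.2 and 66.4 CPM in the controls and 51.9, 56.6 and 67.3 CPM in the exposed libraries. The 2 replicate 3 libraries were almost equal, and both were above all others. Over 6 libraries the log2 fold change was 0.35 (SE 0.25, edgeR adjusted p = 0.700), and over replicates 1 and 2 Rb1 rose by 0.62 (SE 0.10, edgeR adjusted p = 0.00885).

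E2f1 (ENSMUSG00000027490, chr2:154559407-154569892, minus strand) encodes the transcription factor that RB1 holds back. It had 82.8, 68.8 and 55.3 CPM in the controls and 51.9, 53.6 and 68.3 CPM in the exposed libraries. Exposed replicates 1 and 2 were below all controls, and exposed replicate 3 was close to control replicate 2. The log2 fold change was -0.25 (SE 0.18, edgeR adjusted p = 0.700) over 6 libraries, and over replicates 1 and 2 E2f1 fell by 0.50 (SE 0.11, edgeR adjusted p = 0.0186). The replicate 3 libraries differed by 0.30 in the other direction. For 3 of the 10 genes (Ccnd1, Cdkn1b and Rb1) the difference between the replicate 3 libraries had the same sign as that of replicates 1 and 2. For Ccnd1 and Cdkn1b that sign was already fixed, since their groups did not overlap, so it adds no support. For Rb1 the difference was only 0.02, and each such difference sets 1 library against 1.

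The libraries also differed by base composition. Among genes of low GC content (up to 44.7%), the median log2 deviation from the mean of all libraries was -0.271, -0.145 and 0.162 for the controls and 0.193, 0.118 and -0.022 for the exposed libraries. Among genes of high GC content (from 54.1%) the order was turned round, from 0.294 in control replicate 1 to -0.272 in control replicate 3. Control replicates 1 and 2 thus lay on 1 side and exposed replicates 1 and 2 on the other, with control replicate 3 beside the latter and exposed replicate 3 between them.

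Between replicates 1 and 2 of the groups, the difference in base composition ran with exposure. Base composition, cell make-up and exposure thus cannot be told apart there, and the correction below can act on each of them. Some of the 10 genes moved along the same axis. Those that rose over replicates 1 and 2 had a low GC content, with Ccne2 at 36.3%, Rb1 at 41.2% and Cdkn1b at 43.1%, and those that fell had 50.9% (Ccnd1) to 58.3% (E2f1). Spearman's rho between GC content and the log2 fold change was -0.697 over the 10 genes and -0.466 over the 20567 genes with both values, given as a description across genes that share the same 4 libraries. After each library was corrected for GC content and exon length, rho was -0.103 over the 10 and 0.004 over all genes. The correction fits and removes the trend with GC content over all genes, so the small value there was fixed in advance.

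With this correction, 3 of the 10 genes kept an adjusted p under 0.05 over replicates 1 and 2. Cdkn1b rose by 0.41 (SE 0.08, edgeR adjusted p = 0.0181), in a fit in which 5.98% of all genes rose. Ccnd1 fell by 0.46 (SE 0.09, edgeR adjusted p = 0.0194) and Ccnd3 fell by 0.56 (SE 0.08, edgeR adjusted p = 0.0109), where 8.61% of all genes fell. The other 4 lost the call. Ccne2 had a log2 fold change of 0.39 (adjusted p = 0.113 by edgeR), Rb1 of 0.18 (0.334), Ccne1 of -0.18 (0.232) and E2f1 of -0.14 (0.328). Cdkn2a, with the highest GC content of the 10 (60.2%), moved from -0.14 to 0.56 (edgeR adjusted p = 0.0598).

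Over all 6 libraries the corrected levels of Cdkn1b were 112, 108 and 96.0 CPM in the controls and 145, 147 and 120 CPM in the exposed libraries. The groups again did not overlap, as for 6.23% of all genes with higher exposed levels. The corrected log2 fold change was 0.38 (SE 0.11, edgeR adjusted p = 0.462). The corrected levels of Ccnd1 were 120, 108 and 94.5 CPM in the controls and 85.96, 79.1 and 87.0 CPM in the exposed libraries, again without overlap, as for 8.03% of all genes with lower exposed levels. Its corrected log2 fold change was -0.35 (SE 0.10, edgeR adjusted p = 0.489). Both genes thus kept their direction and their separation, and neither passed the adjusted threshold over 6 libraries.

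**Figure D3:**
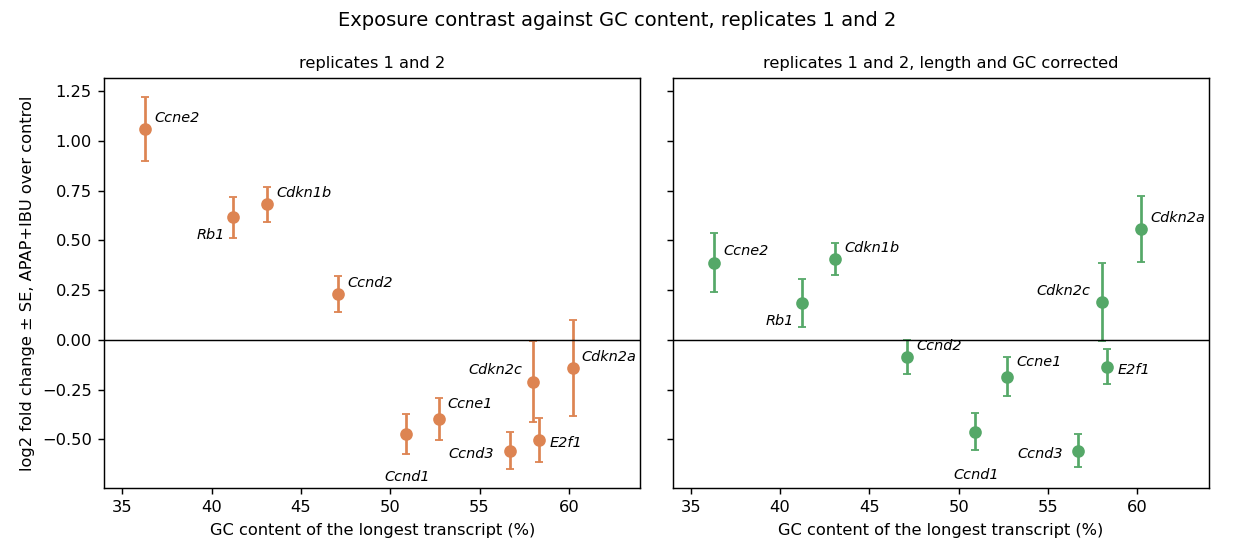
Log2 fold change of each of the 10 genes over replicates 1 and 2 (APAP+IBU over control, bars are the SE, n = 2 libraries per group) against the GC content of its longest transcript in percent, before (left) and after (right) the correction for GC content and exon length. Before it Ccne2, at 36.3% GC, stands at 1.06, and after it at 0.39, while Ccnd1 and Ccnd3 hardly move.

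**Figure D4:**
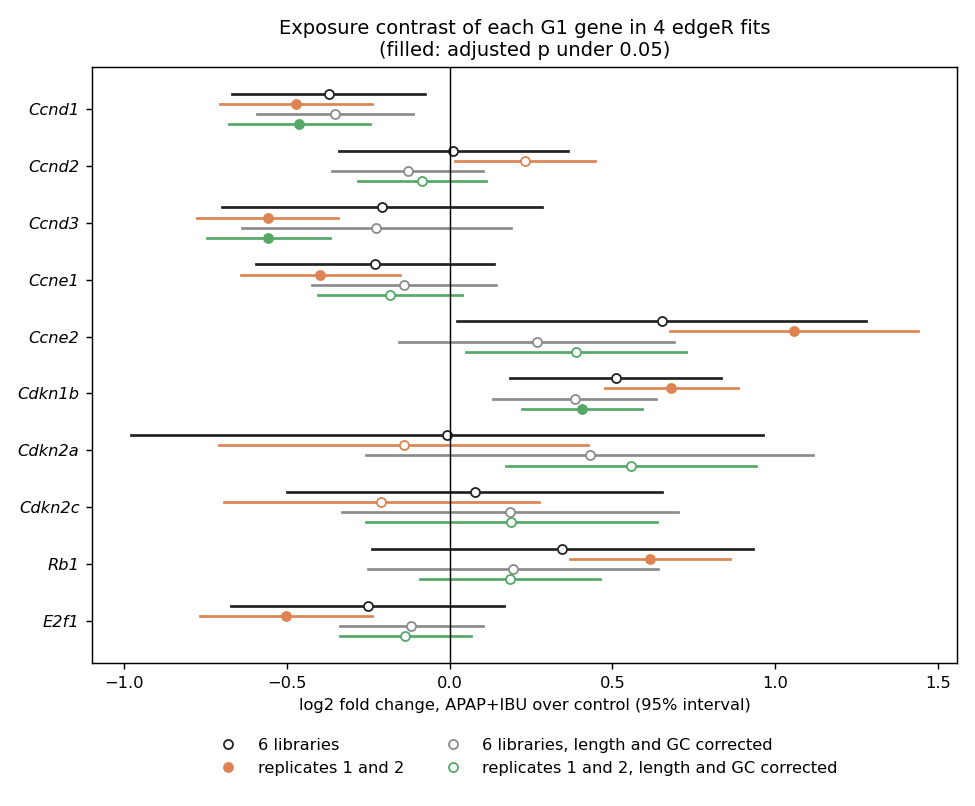
Log2 fold change of each of the 10 genes with its 95% interval in 4 edgeR fits, over 6 libraries or over replicates 1 and 2, each without and with the correction, with filled points for an adjusted p under 0.05. No point of the 6-library fits is filled, 7 are filled over replicates 1 and 2 and 3 after correction, and the intervals of Ccnd1 and Cdkn1b leave out 0 in all 4.

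A further 44 genes of the G1/S pathway were tested. They included partner kinases, further cyclins, inhibitors and pocket proteins, E2F and DP factors, Myc genes and ubiquitin ligase subunits that degrade cyclins and p27. The list also held Cdc25a, Wee1, Trp53, Mdm2, Cdk7 with Ccnh and Mnat1, Cdk8 with Ccnc, and the pseudogene Cdk3-ps. Over 6 libraries 0 of the 44 passed the adjusted threshold. Their median log2 fold change was 0.00, beside -0.00 for all genes, and 22 of 44 had a positive value, beside 9962 of all 20167 genes. The smallest unadjusted p, 0.0404, was that of Rbx1, the RING subunit of SCF ligases, with 126, 123 and 100 CPM in the controls and 86.3, 88.1 and 102 CPM in the exposed libraries (log2 fold change -0.33, SE 0.14). Ccnc, the cyclin of the Mediator kinase, and Tfdp2, a partner of E2F factors, had log2 fold changes of 0.32 (SE 0.16) and 0.28 (SE 0.16), Myc and Mycn, which drive growth and cyclin genes, of -0.35 (SE 0.19) and -0.32 (SE 0.18).

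The groups did not overlap for 4 of the 44, all with lower exposed levels, beside 5.92% of all genes on that side. They were Ccna1, Mnat1, Mycl and Skp1a, of which the last 3 are named because of that count. Ccna1, the cyclin of male meiosis, had 1.31, 1.23 and 1.11 CPM in the controls and 0.355, 0.677 and 0.989 CPM in the exposed libraries, on 18 to 50 counts per library. Its controls were also the libraries with the higher spermatid markers, of which Smcp, a gene of the sperm mitochondrial capsule, had 6.87, 2.76 and 2.42 CPM in the controls and 0.118 to 0.182 CPM in the exposed libraries.

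In replicates 1 and 2, 8 of the 44 rose and 6 fell, near the 14.2% and 12.9% of all genes that did. Among those that rose were Rbl1 (log2 fold change 0.58, edgeR adjusted p = 0.0126) and Rbl2 (0.42, adjusted p = 0.0315 by edgeR), the relatives of Rb1, and among those that fell the inhibitors Cdkn1c (p57, -0.85, edgeR adjusted p = 0.0169) and Cdkn2d (p19Ink4d, -0.76, edgeR adjusted p = 0.00986). These 4 were named after their values were seen, as relatives of the genes described here. After the correction 0 of the 44 rose and 4 fell, beside 5.98% and 8.61% of all genes, and none of these 4 relatives was among them. Rbx1 fell by 0.80 (SE 0.09, edgeR adjusted p = 0.0098).

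The 30 replication genes known as E2F targets lie downstream of the 10 genes. Over 6 libraries 0 of 30 passed the adjusted threshold, and 25 had a negative log2 fold change, with a median of -0.12. A positive value was found for 5 of the 30, beside 9962 of all 20167 genes. Dut, which keeps uracil out of DNA, had the smallest unadjusted p, 0.0212, with 134, 112 and 103 CPM in the controls and 70.3, 65.9 and 102 CPM in the exposed libraries. Its groups did not overlap, although control replicate 3 and exposed replicate 3 were nearly equal. Of the subunits of the replicative helicase, Mcm6 had a log2 fold change of -0.33 (SE 0.15), Mcm7 of -0.25 (SE 0.17) and Mcm3 of -0.23 (SE 0.15), while Chaf1a, a subunit of a histone chaperone, had -0.26 (SE 0.14) and Gins1, a helicase cofactor, -0.24 (SE 0.15). In replicates 1 and 2, 2 of the 30 rose and 10 fell, beside 14.2% and 12.9% of all genes. With the correction 1 rose and 9 fell, beside 5.98% and 8.61% of all genes. Dut fell in both, by 0.84 and by 0.69 (edgeR adjusted p = 0.00632 and 0.0109). The summed level of the 30 genes was 4780.4, 4323 and 4563 CPM in the controls and 3662, 3863 and 4686 CPM in the exposed libraries, so that exposed replicate 3 lay among the controls.

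**Figure D5:**
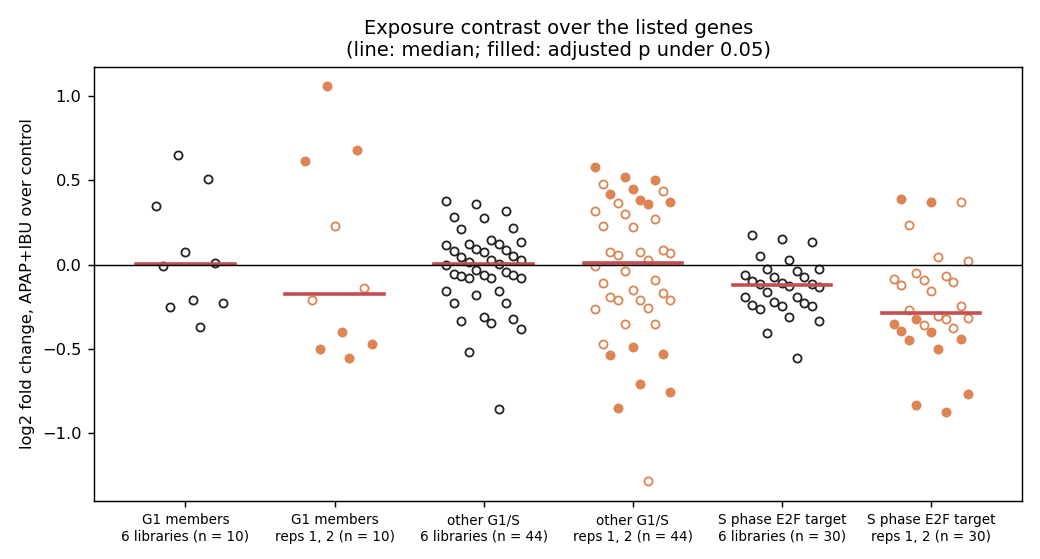
Log2 fold change (APAP+IBU over control) of the 10 G1 genes, of 44 other G1/S genes and of 30 E2F target genes of S phase, over 6 libraries (black) and over replicates 1 and 2 (orange), where each point is a gene, filled points have an adjusted p under 0.05 and the line is the median. Over 6 libraries no point is filled, and the median of the E2F targets is -0.12 against 0.00 for the other G1/S genes.

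The tested genes whose log2 level ran most like that of each of the 10 over the 6 libraries were Ankrd63 for Ccnd1 (Pearson r = 0.997), Sec63 for Ccnd2 (0.994), Txn2 for Ccnd3 (0.999), Itpa-ps1 for Ccne1 (0.998) and Syt14 for Ccne2 (0.999). For the remaining genes they were Elac1 for Cdkn1b (0.995), Myh2 for Cdkn2a (0.996), Prkab1 for Cdkn2c (0.994), Zfp345 for Rb1 (0.997) and Apoe for E2f1 (0.999). With 6 libraries such likeness was common, since between 103 (Cdkn2c) and 1853 (E2f1) tested genes had an r over 0.9 with a given gene of the 10. Among the 10 themselves, Ccnd3 and E2f1 ran most alike (r = 0.953).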

How the data were processed

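RNA was sequenced from 3 control and 3 APAP+IBU libraries of 13.5 dpc ovaries. Per the submitters' processing notes and the study's methods, the authors made stranded, poly(A)-selected libraries, converted base calls with bcl2fastq 2.17.1.14, mapped reads to mm10 with TopHat2 2.0.14 and Bowtie2 2.1.0 and deposited raw counts per Ensembl release 86 gene from HTSeq 0.6.1. The strand setting of the counting is not given in the sources used here. Without it, reads of overlapping genes on the opposite strand cannot be told apart: in the annotation Ccnd1 shares 1100 of 4709 exonic bases with LTO1, Ccne2 609 of 3495 with Ints8, Rb1 488 with Rcbtb2 and 408 with Lpar6, Ccnd3 361 with Bysl, and Ccnd2 368 and 372 with antisense genes.

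Of 48709 identifiers, 48349 were named by GENCODE M21 (GRCm38). The counts were filtered with filterByExpr, scaled by TMM and tested with edgeR 4.0.16 (quasi-likelihood, R 4.3.3) across all genes, with Benjamini-Hochberg adjustment. Standard errors were derived from the F statistic. CPM use TMM-scaled totals, and log2 CPM a prior count of 1. The correction was a loess fit (span 0.3) of each gene's log2 deviation in a library on GC content and exon length, entered as an offset. GC content is that of the longest transcript, and length is the union of exons. The tests were checked on simulated counts with the same variability for all genes. The simulation held no differences between libraries in base composition or in liver and spermatid transcripts, so the check does not cover these.

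The 10 genes and the lists were chosen with earlier results of these data known, as was the comparison of replicates 1 and 2, so counts over them are descriptions. All 10 were named, together with the 6 genes of smallest unadjusted p in each pathway list. The most correlated gene of each of the 10 and leading markers were named as well. Outside this rule, Mnat1, Mycl and Skp1a were named for their lack of overlap. Rbl1, Rbl2, Cdkn1c and Cdkn2d were named after their values were seen. Foxl2, Sry and Ccnd3-ps were named too. Replicate numbers were not taken as pairs. No libraries were duplicates. P-values measure the spread between pools. DESeq2 1.42.0, other scalings and filters, a replicate block, the correction and leaving out each library were tried as alternatives.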

Additional observations from a re-analysis of the deposited data

How the results depend on the processing

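Over the alternatives, the log2 fold changes of the 10 genes kept their direction and stayed short of the adjusted threshold in 144 cases, passed it in 25 and changed sign in 21, which all belonged to the 3 genes near 0. The signs of Ccnd1, Ccnd3, Ccne1, Ccne2, Cdkn1b, Rb1 and E2f1 did not change under any of them. Ccnd2 had -0.0161 with upper quartile scaling, -0.0005 with a stricter filter of 10 counts per library, -0.1283 with the length and GC correction and -0.0849 with it over replicates 1 and 2. Cdkn2a had 0.0378 with total counts only, 0.0065 with all genes counted, 0.4311 with the correction and 0.5573 with it over replicates 1 and 2. Cdkn2c had -0.2091 over replicates 1 and 2, and -0.2159 there by DESeq2. With each library left out in turn, Ccnd2 ranged from -0.0648 to 0.10, Cdkn2a from -0.3553 to 0.4620 and Cdkn2c from -0.2136 to 0.2458. Likewise Ccnd3 ranged from -0.4462 (without exposed replicate 3) to -0.0919 (exposed replicate 1), Ccne1 from -0.4209 (exposed replicate 3) to -0.1249 (exposed replicate 1), E2f1 from -0.4105 (exposed replicate 3) to -0.0999 (control replicate 1), Ccne2 from 0.3896 (exposed replicate 2) to 0.8718 (exposed replicate 3), Rb1 from 0.1725 (control replicate 2) to 0.7071 (control replicate 3), Ccnd1 from -0.4548 to -0.2875 and Cdkn1b from 0.4235 to 0.6089. Same-numbered control and exposed libraries did not deviate together (correlations -0.069, -0.015 and -0.044), and not every library correlated best with its own number. These correlations cannot show whether same-numbered pools came from 1 experiment, and both replicate 3 libraries had high liver markers. No pairing was taken from the numbers. With the replicate block, Cdkn2a had 0.1162 over 6 libraries and Cdkn2c -0.2140 over replicates 1 and 2, and with the block and the correction Ccnd2 had -0.1319 and Cdkn2a 0.3837.

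The number of the 10 genes past the threshold was 0 over 6 libraries and 0 to 2 with each library left out, where the 2, Ccnd1 and Rb1, came without control replicate 3. Over replicates 1 and 2 it was 7 by edgeR and 7 by DESeq2, 3 with the correction and 6 with the replicate block. All genes past it were 0 by edgeR (1254 at an unadjusted p under 0.05), 192 by DESeq2, 120 with all genes counted, 2 with the replicate block, 29 with the block and the correction and 0 to 1064 with each library left out, again highest without control replicate 3. Over replicates 1 and 2 they were 5607, 5832 by DESeq2, 3009 with the correction and 3817 with the block. For the other G1/S genes, leaving out a library gave 0 to 3 (3 without control replicate 3), and replicates 1 and 2 gave 14, 16 by DESeq2, 4 with the correction and 8 with the block. For the E2F targets replicates 1 and 2 gave 12, 14, 10 and 7 in the same order. Fits of 2 against 2 libraries rest on few samples, and why the replicate 3 libraries change the counts was not tested. Cdkn2c, with at most 352 counts in a library, had the least depth of the 10.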

Other observations

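The marker lists of the other cell types of the gonad were counted in the edgeR fit over 6 libraries, in which 0 genes passed the adjusted threshold. Of all genes tested there, 3% had higher and 3.21% lower values in exposed ovaries at an unadjusted p under 0.05. At an unadjusted p under 0.05, 3 of 12 erythroid markers had lower values in exposed ovaries, with a median log2 fold change of -0.60 over the list, and their summed level was 7065, 17248 and 10995 CPM in the controls and 3194, 5447 and 10249 CPM in the exposed libraries, which overlap. Among the germ cell markers 1 of 10 was lower at that threshold (median -0.37), and among the pregranulosa markers 1 of 10 was higher (median 0.01). The stroma list had 1 of 8 lower (median 0.03), the mesonephros list 1 of 6 lower (median 0.01), the macrophage list 1 of 6 lower (median -0.32) and the endothelial list 0 of 6 (median -0.22). Of the fetal testis markers 3 of 6 were lower (median -1.10), at summed levels of only 20.5 to 46.8 CPM, and of the adrenal markers 1 of 2. The liver list had 0 of 19 on either side (median 0.56), and the spermatid list 18 of 20 lower and 1 higher (median -3.85).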
